A study of Mus musculus with 70 samples.

Results

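Cd14, its partner Ly96 and 8 adaptors, kinases and a ligase that act just behind the Toll-like receptors were followed through sorted blood leukocytes of stressed and unstressed mice. The 10 genes (Cd14, Ly96, Tirap, Ticam2, Myd88, Ticam1, Irak4, Irak1, Irak3 and Traf6) were chosen by their place in the pathway, from 52636 genes in the count table, after Cd14 had been seen to differ between stressed and unstressed mice in these same libraries. That contrast, susceptible against control mice in Ly6C-high monocytes, is therefore given here as a description without p-values.

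Toll-like receptors are sensors of microbial molecules. TLR4 recognises bacterial lipopolysaccharide, which LBP carries to CD14 and CD14 hands to the complex of TLR4 with MD-2, the product of Ly96. The receptor tails then recruit adaptors along a pair of routes. TIRAP brings in MyD88, which assembles IRAK4 and IRAK1 and engages TRAF6 at the plasma membrane, while TRAM (Ticam2) brings in TRIF (Ticam1) from endosomes. IRAK3, also called IRAK-M, is known as a brake on the MyD88 route in myeloid cells.

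The mice were C57BL/6J young adults. CON mice were unstressed, and stressed mice were exposed to CD-1 aggressors on 10 days of social defeat and were then divided by a social interaction test into susceptible (SUS) and resilient (RES) animals. Blood leukocytes were separated by flow cytometry into T cells, B cells and a pair of monocyte subsets (Ly6C-high and Ly6C-low) and collected in lysis reagent, and total RNA was sequenced with 1 library per sample, 70 libraries in all. Ly6C-high monocytes gave 18 libraries, Ly6C-low monocytes 16 (4 of them from CON mice), B cells 18 and T cells 18, with 6 in every other group. Brain is written as the source in the labels, whereas the series design and the methods of the study give blood, which is followed here. The mouse behind a library is not named, which leaves no pairing across cell types, and nothing says that libraries of a group are separate animals, in which case p-values measure only the spread between libraries.

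Library totals ran from 19769835 to 67038231 counts (median 37105584). T cell genes (Cd3e, Cd3d, Cd3g, Trac) summed to between 1228 and 1773 CPM (counts scaled to a common library size) in T cell libraries, and Nr4a1, Ace and Treml4, markers of the Ly6C-low subset, to between 337 and 860 CPM in Ly6C-high and 3372 and 4842 CPM in Ly6C-low libraries. Libraries 52 and 70 went against their labels. Library 52, labelled B cells of a RES mouse, held 1342 CPM of these T cell genes, while library 70, labelled T cells of a RES mouse, held 0.681 CPM of them. Both were left out of all values below unless stated. Irak3 shows the same exchange: it stood at 2.95 CPM in library 52 and at 91.4 CPM in library 70.

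All genes are given on GRCm38 as annotated by GENCODE M21. Cd14 lies at chr18:36725067-36726798 on the minus strand, Ly96 at chr1:16688051-16709611 on the plus strand, Tirap at chr9:35184551-35200291 on the minus strand and Ticam2 at chr18:46557291-46574533 on the minus strand. Myd88 lies at chr9:119335934-119341411 (minus), Ticam1 at chr17:56269319-56276786 (minus), Irak4 at chr15:94543643-94581815 (plus), Irak1 at chrX:74013914-74023918 (minus), Irak3 at chr10:120141648-120202130 (minus) and Traf6 at chr2:101678429-101701669 (plus). Counts are sums over the exons of each gene. Exons of Myd88, Tirap, Irak3 and Irak4 overlap exons of genes on the opposite strand (Acaa1a, Srpr, Tmbim4 and Twf1), and exons of Ticam2 overlap those of Tmed7 on the same strand. Whether counting used strand is not given in the sources used here, so reads of such partners cannot be told apart, and the levels of these members are uncertain to that extent.

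In unstressed mice most members were higher in Ly6C-high monocytes than in lymphocytes, and most were higher in Ly6C-low monocytes than in T cells. Against B cells a minority of members was called higher in Ly6C-low monocytes. Among CON libraries, 8 of the 10 members were called higher in Ly6C-high monocytes than in T cells, 6 higher than in B cells and 1, Cd14, higher than in Ly6C-low monocytes. A call is an adjusted p under 0.05 (edgeR quasi-likelihood test, Benjamini-Hochberg over all genes tested) with an absolute log2 fold change above 1. Many genes differ between these cell types: 32.8% of the 21032 genes tested were called in Ly6C-high monocytes against T cells, 33.1% against B cells and 11.2% against Ly6C-low monocytes. Ly6C-low monocytes had 4 members above B cells (30.3% of genes called) and 8 above T cells (28.5%), and B cells had 4 above T cells (20.2%), namely Irak3, Tirap, Ticam2 and Cd14. The last of these rests on 15 counts in B cells and 2 in T cells, and leaving out any of 6 libraries ended its call (adjusted p up to 0.299, edgeR). All of these member calls were in the direction of the cell type named first. Cd14 is among the members counted in each of these comparisons. Against or between lymphocytes it passed the low-count filter only through the monocytes, so nothing is read from its calls there. In bulk samples of this kind, fewer cells of a type and less RNA per cell cannot be told apart.

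**Figure D1:**
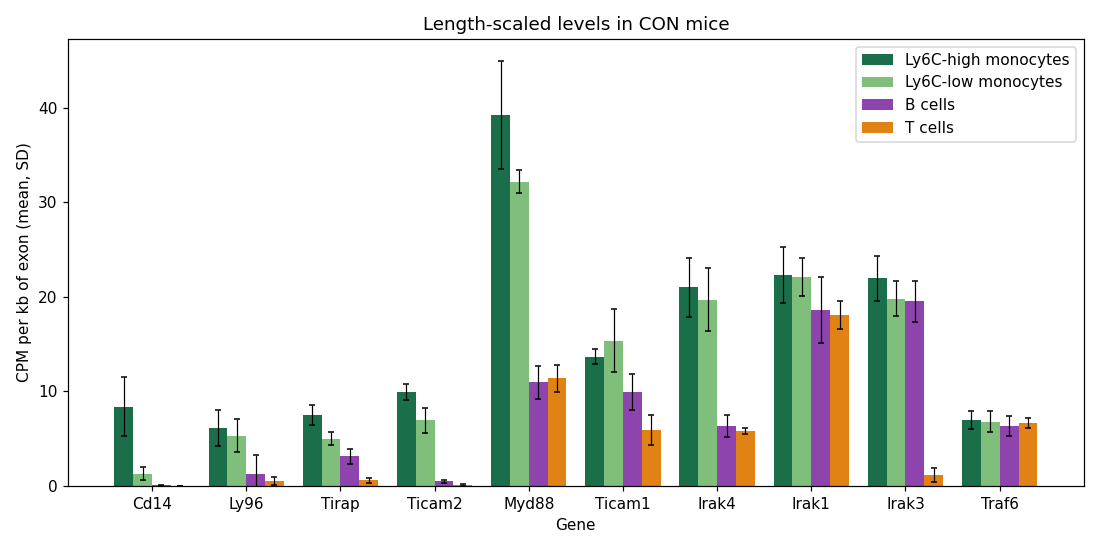
Mean level of each gene in CON mice, as CPM per kb of exon, with bars for the 4 sorted cell types and error bars of 1 SD over libraries (6 per type, 4 for Ly6C-low monocytes). Myd88 reached 39.3 CPM per kb in Ly6C-high monocytes and was the highest bar, Irak3 was high in B cells and low in T cells, and Traf6 and Irak1 were nearly level.

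Per length, Myd88 was the most abundant member in Ly6C-high monocytes of CON mice, at 39.3 ± 5.73 CPM per kb of exon (SD, n = 6). Irak1, Irak3 and Irak4 followed at 22.3 ± 2.98, 22.0 ± 2.37 and 21.0 ± 3.15 CPM per kb, within each other's spread. Cd14 (8.38 ± 3.08), Tirap (7.51 ± 1.07), Traf6 (6.96 ± 0.9851) and Ly96 (6.12 ± 1.95) formed the lower end and also lay within their spread. In T cells the order was different, with Irak1 first at 18.05 ± 1.495 CPM per kb, Myd88 second at 11.4 ± 1.43 and Irak3 down at 1.20 ± 0.731.

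Cd14, the lipopolysaccharide co-receptor, was a monocyte gene in these libraries and was higher in the Ly6C-high subset. In Ly6C-high monocytes of CON mice it measured 17.8, 7.25, 11.5, 15.5, 22.6 and 12.6 CPM, and in Ly6C-low monocytes of CON mice 0.978, 1.82, 2.57 and 3.70 CPM. The groups did not overlap, and the log2 fold change was 2.67 ± 0.72 (SE, adjusted p = 0.00838 by edgeR). In this comparison 11.2% of genes were called, and the share of genes without overlap was not computed. B cell libraries of CON mice held 15 Cd14 counts in all, with 3 of 6 libraries at 0, and T cell libraries of CON mice held 2. No fold against lymphocytes is given, because these counts are at the limit of detection.

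After social defeat the Cd14 level in Ly6C-high monocytes was higher in both stressed groups. SUS libraries measured 30.3, 48.5, 62.3, 54.2, 39.5 and 18.5 CPM, with a mean of 42.2 ± 16.1 (SD, n = 6) beside 14.5 ± 5.34 for CON, and 5 of the 6 lay above every CON library. RES libraries measured 26.8, 31.1, 71.6, 16.4, 44.9 and 39.5 CPM, a mean of 38.4 ± 19.1. The lowest RES library, at 16.4 CPM, fell inside the CON range, and the others lay above it. The SUS difference from CON was 1.48 ± 0.31 on the log2 scale (SE), and the RES difference was 1.37 ± 0.31 (adjusted p = 0.0185 by edgeR). The RES call ended without RES library 9 (1.11, adjusted p = 0.0633) or 18 (1.37, adjusted p = 0.0515) and with a red cell covariate (1.11, adjusted p = 0.959). That covariate was higher in every RES than in every CON library, so this fit cannot separate red cell RNA from stress. Both contrasts share the same CON libraries. Cd14 came into view through the SUS difference from those libraries, so the RES p-value is not free of that choice and may be too low.

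**Figure D2:**
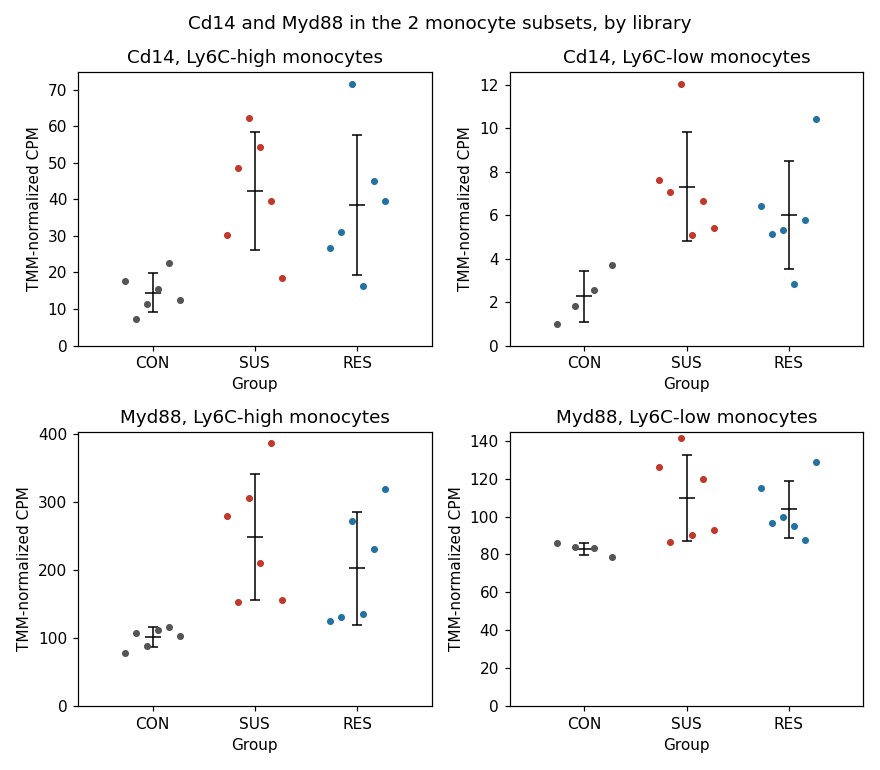
Each point is 1 library, in TMM-normalized CPM on linear axes from 0, for Cd14 (top) and Myd88 (bottom) in Ly6C-high (left) and Ly6C-low monocytes (right), with the mean and 1 SD in black. In Ly6C-high monocytes every SUS and RES library of Myd88 lies above the highest CON library at 116 CPM, and Cd14 overlaps CON in 1 SUS and 1 RES library.

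The count of members called has to be read against all genes. In Ly6C-high monocytes 3.45% of 16955 genes tested were called for SUS against CON and 2 of the 10 members were among them, Cd14 and Myd88, both higher, a count from which nothing is read because this contrast led to the choice of genes. For RES against CON 0.997% were called and 1 member was, Cd14. Every SUS library exceeded every CON library for 4.64% of genes, and every RES library did for 2.79%. The median log2 fold change of the 10 members for RES against CON was 0.10, beside -0.03 over all genes tested. Of all genes called for SUS against CON, 387 were higher and 198 lower, and with DESeq2 size factors in edgeR 296 and 244. For RES against CON these were 90 and 79, and 61 and 91.

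No member was called between SUS and RES mice. In Ly6C-high monocytes 0% of genes were called between SUS and RES by edgeR (620 had an unadjusted p under 0.05, and DESeq2 called 11), and 0 members were called, with 0 at an unadjusted p under 0.05 and 0 by DESeq2. Cd14 differed by 0.11 ± 0.30 (SE, log2) and Myd88 by 0.28 ± 0.23, each with an adjusted p of 0.999 (edgeR).

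In Ly6C-low monocytes, the patrolling subset, Cd14 was at a lower level and its stress difference did not pass the threshold. CON libraries measured up to 3.70 CPM, and SUS libraries measured 7.61, 7.06, 12.1, 5.08, 6.66 and 5.44 CPM, so the groups did not overlap. Every SUS library lay above every CON library for 1.21% of genes tested in this subset. RES libraries measured 6.45, 5.16, 5.33, 2.86, 5.78 and 10.5 CPM, with 1 library inside the CON range. The log2 fold change was 1.68 ± 0.38 for SUS against CON (adjusted p = 0.0538, edgeR) and 1.37 ± 0.38 for RES against CON (adjusted p = 0.178). DESeq2 called the SUS difference (adjusted p = 0.00437). The difference of the RES change between the monocyte subsets was -0.01 ± 0.96 on the log2 scale, with too wide an error to tell the subsets apart.

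Lymphocytes held almost no Cd14 in any group. The 17 B cell libraries had 25 counts in all and 13 were at 0. Among the 17 T cell libraries 12 were at 0, and the largest counts were 102 in library 55 (RES), 44 in library 54 (SUS) and 25 in library 57 (SUS). These 3 libraries also held the highest summed monocyte marker levels (Csf1r, Cd68, Lyz2) of the T cell libraries, 254, 368 and 306 CPM, beside CON libraries of 10.3 to 178 CPM. Library 58 (RES) held 222 CPM of these markers and library 56 (CON) 178 CPM, both with 0 Cd14 counts. The part of residual monocyte RNA in these counts was not tested. Within B or T cells Cd14 did not pass the filter on low counts. It passed in fits over all cell types only through the monocytes, so nothing is read there from its values against lymphocytes.

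Ly96 encodes MD-2, the protein that sits on TLR4 and binds lipid A. In Ly6C-high monocytes its mean was 6.25 ± 1.99 CPM for CON, 5.92 ± 3.46 for SUS and 6.00 ± 2.37 for RES (SD, n = 6 each), and all 3 ranges overlapped. The log2 fold changes were -0.14 ± 0.40 for SUS and -0.07 ± 0.40 for RES against CON (adjusted p = 0.948 for RES). In B and T cells the level was low and irregular: 1 B cell library of a CON mouse, library 38, stood at 5.55 CPM while the next stood at 0.817.

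The sorting adaptors Tirap and Ticam2, which place MyD88 and TRIF at the receptor, had overlapping ranges in all 3 groups. Tirap in Ly6C-high monocytes averaged 37.0 ± 5.25 CPM for CON, 38.5 ± 5.51 for SUS and 32.4 ± 6.29 for RES, and Ticam2 averaged 57.5 ± 4.93, 50.6 ± 15.9 and 50.2 ± 11.4 CPM. The RES differences from CON were -0.21 ± 0.16 (adjusted p = 0.466) for Tirap and -0.21 ± 0.19 (adjusted p = 0.569) for Ticam2. Neither passed the test by edgeR, with 0 of the pair at an unadjusted p under 0.05.

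Both sorting adaptors were called higher in Ly6C-high monocytes than in B or T cells of CON mice, by 1.31 ± 0.25 (log2) and 3.67 ± 0.28 for Tirap and by 4.46 ± 0.68 and 6.87 ± 0.78 for Ticam2. In Ly6C-low monocytes against B cells Tirap was under the fold threshold (0.73 ± 0.27, adjusted p = 0.0328, edgeR). Tirap averaged 15.4 ± 3.76 CPM in B cells and 2.99 ± 1.38 CPM in T cells, a log2 difference of 2.36 ± 0.26 (adjusted p = 4.37e-08, edgeR). Ticam2 averaged 2.70 ± 0.722 CPM in B cells, and in T cells 4 of the 6 CON libraries held 0 or 1 count while the other two held 49 and 76. Tmed7, which shares exons with Ticam2 on the same strand, stood at 97.9 ± 9.58 CPM in Ly6C-high monocytes and at 51.5 ± 3.58 CPM in T cells of CON mice.

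Myd88, the adaptor used by most Toll-like receptors and by the interleukin-1 receptor family, was the member whose SUS and RES libraries both lay outside the CON range in each monocyte subset. In Ly6C-high monocytes of CON mice it measured 78.2, 108, 88.6, 112, 116 and 104 CPM. SUS libraries measured 279, 153, 306, 211, 388 and 156 CPM, and RES libraries 126, 132, 272, 135, 231 and 319 CPM. The 12 stressed libraries did not overlap the CON libraries, although the lowest RES library, at 126 CPM, was close to the highest CON library, at 116 CPM. Every SUS library lay above every CON library for 4.64% of all genes tested in this subset, and every RES library for 2.79%. The means were 101 ± 14.8, 249 ± 92.6 and 202 ± 83.2 CPM.

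The Myd88 difference from CON was 1.26 ± 0.24 for SUS and 0.98 ± 0.24 for RES mice on the log2 scale (SE). The RES difference had an adjusted p of 0.0240 (edgeR) and fell just under the fold threshold, so Myd88 is not counted as called there. Acaa1a, a peroxisomal thiolase gene whose exons overlap those of Myd88 on the opposite strand, moved alongside: it averaged 61.0 ± 16.4 CPM for CON, 127 ± 46.6 for SUS and 108 ± 31.3 for RES. The share of reads of one gene counted in the other was not tested.

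In Ly6C-low monocytes CON libraries ran from 78.6 to 86.1 CPM, SUS libraries from 86.4 to 142 CPM and RES libraries from 87.9 to 129 CPM. The stressed groups again did not overlap CON, as was so for 1.21% of genes for SUS and 1.71% for RES, but the log2 fold changes of 0.39 ± 0.13 and 0.30 ± 0.13 had adjusted p-values of 0.2435 and 0.443 (edgeR). In this subset 0.0871% of 19521 genes were called for SUS against CON, 0.0154% for RES against CON and 0% between SUS and RES (740 at an unadjusted p under 0.05, 0 by DESeq2). Of the 10 members 0 were called in these 3 comparisons, with 3, 3 and 0 at an unadjusted p under 0.05 and 1, 0 and 0 called by DESeq2. Many genes reached such a p. The last of the 3 members for SUS against CON, Irak3 (unadjusted p = 0.0446, edgeR), ranked 1729 among the 19521 genes. For RES against CON it was Ticam1 (unadjusted p = 0.0339, edgeR), at rank 1424.

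Whether the RES change differed between cell types was tested directly. The change of Myd88 was larger in Ly6C-high monocytes than in B cells by 0.98 ± 0.27 (log2, adjusted p = 0.0470, edgeR), 1 of the 10 members in a comparison where 1.65% of 24248 genes passed an adjusted p under 0.05. With only these cell types in the fit the difference was 0.97 and its adjusted p 0.119. Against T cells it was 0.75 ± 0.27 (adjusted p = 0.121), where 0.713% of genes and 0 members passed, and against Ly6C-low monocytes 0.67 ± 0.28 (adjusted p = 0.303), where 0.099% of genes and 0 members passed. At an unadjusted p under 0.05 (edgeR) there were 3 members against T cells: Myd88 and, in the opposite direction, Tirap (-0.74 ± 0.33) and Cd14 (-3.76). Against Ly6C-low monocytes there were 2, Myd88 and Ticam1 (0.61 ± 0.29). The share of all genes at that p is not given here, so nothing is read from these counts. The Cd14 value rests on library 55, since the other 4 RES libraries of T cells held 0 counts.

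Ticam1, which encodes TRIF, is the adaptor of the endosomal route and of TLR3. Its Ly6C-high libraries ran from 38.2 to 44.4 CPM for CON, 31.8 to 55.5 for SUS and 36.7 to 64.8 for RES, with overlap throughout. The differences from CON were 0.06 ± 0.16 for SUS and 0.27 ± 0.16 for RES (adjusted p = 0.336, edgeR), and in Ly6C-low monocytes the values pointed down, at -0.23 ± 0.16 and -0.36 ± 0.16 (adjusted p = 0.742 and 0.463). Across CON cell types it was higher in Ly6C-high monocytes than in T cells (log2 1.27 ± 0.17, adjusted p = 7.79e-07).

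**Figure D3:**
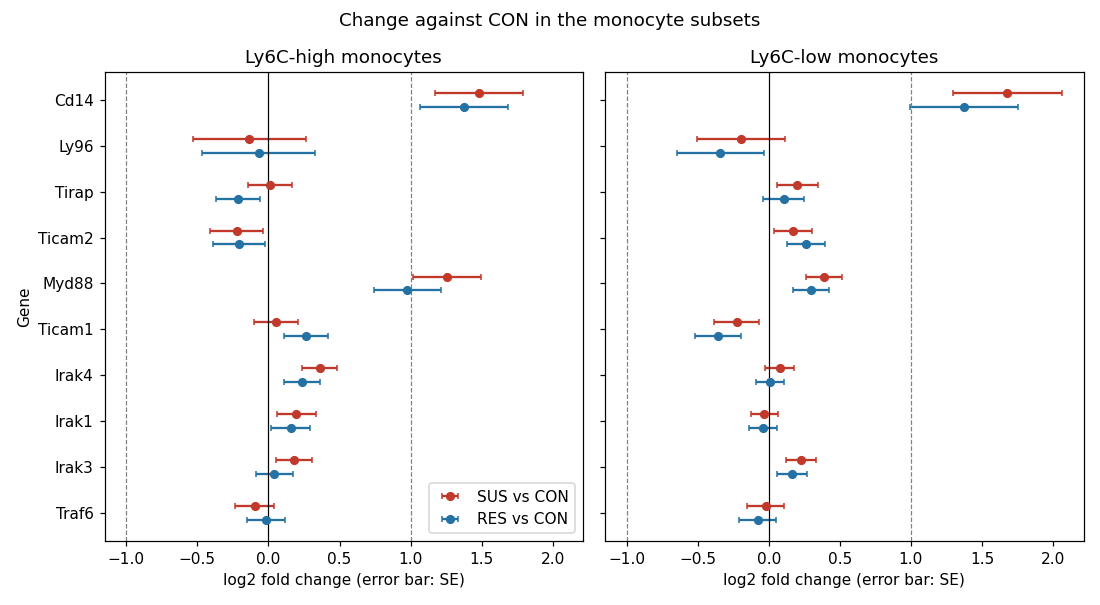
Log2 fold change against CON with its SE for each gene in Ly6C-high (left) and Ly6C-low (right) monocytes, SUS in red and RES in blue, with dashed lines at the fold threshold of 1 in either direction. Cd14 lies beyond 1 in both subsets, Myd88 near or beyond 1 only in the left panel, and the others between -0.36 and 0.36.

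The upstream sequences of both signalling adaptors and of Irak3 are shown because these genes behaved differently. Myd88 libraries of stressed and CON mice did not overlap in either monocyte subset and lay closer together in Ly6C-low monocytes. The difference of the RES change between the subsets did not pass (adjusted p = 0.303, edgeR). Ticam1 overlapped between groups, and Irak3 divided cell types. Windows of 7 members were searched in the RefSeq promoter table (GRCm38.p6, 250 bases before to 50 after the start of transcription), 10 windows in all. The Myd88 window is placed on a RefSeq start that lies inside the gene as GENCODE gives it, not at the outer end of that gene. Only the stretch that no GENCODE exon covers is printed, 5′ to 3′ on the gene's strand. Capitals mark matches on either strand to any of 9 short motifs, namely PU.1 (GAGGAAGT), ETS (CCGGAAGT), AP-1 (TGANTCA), CRE (TGACGTCA), NF-kB (GGANTTTCC), IRF (GAAANNGAA), C/EBP (TTGCNNAA), E-box (CACGTG) and TATA box (TATAAA).
Myd88, chr9:119340042-119340268, minus strand: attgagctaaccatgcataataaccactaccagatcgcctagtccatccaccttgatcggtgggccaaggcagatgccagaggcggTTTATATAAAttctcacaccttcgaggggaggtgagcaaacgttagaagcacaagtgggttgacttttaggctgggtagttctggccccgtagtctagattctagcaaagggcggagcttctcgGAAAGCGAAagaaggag
Ticam1, chr17:56276787-56277017, minus strand: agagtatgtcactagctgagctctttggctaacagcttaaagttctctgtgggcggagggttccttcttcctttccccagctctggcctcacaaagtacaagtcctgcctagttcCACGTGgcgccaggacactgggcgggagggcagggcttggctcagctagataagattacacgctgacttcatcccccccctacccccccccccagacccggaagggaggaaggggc
Irak3, chr10:120202196-120202380, minus strand: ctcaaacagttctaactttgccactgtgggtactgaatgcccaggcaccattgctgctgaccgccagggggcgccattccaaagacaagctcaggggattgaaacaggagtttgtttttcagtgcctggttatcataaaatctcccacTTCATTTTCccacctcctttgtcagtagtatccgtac

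The Myd88 stretch of 227 bases held an IRF match that begins 40 bases before the start site and a pair of overlapping TATA box matches farther upstream, and just past the start its window also held an NF-kB match outside the printed part. IRF matches occur in 8.56% of all 32851 windows of this length, TATA box matches in 13.6% and NF-kB matches in 1.25%. The Ticam1 stretch of 231 bases held 1 match, an E-box, found in 7.15% of windows. The Irak3 stretch of 185 bases held an IRF match on the other strand, and outside it lay a C/EBP match in the same window and an E-box in another Irak3 window. C/EBP matches occur in 10.8% of windows. A match describes letters only, and 4 of the 10 member windows held any of the motifs, beside 45.1% of all windows.

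Irak4 and Irak1, the kinases that MyD88 assembles, differed less between stress groups than Cd14 and Myd88 did. Irak4 in Ly6C-high monocytes averaged 105.4 ± 15.8 CPM for CON, 140 ± 19.1 for SUS and 126 ± 14.8 for RES, with a log2 difference of 0.36 ± 0.12 for SUS and 0.24 ± 0.12 for RES (adjusted p = 0.281, edgeR). The groups overlapped, since CON library 10 stood at 136 CPM while the other CON libraries stood between 92.9 and 106.4. Irak1 averaged 105.2 ± 14.1, 124 ± 18.4 and 119 ± 20.7 CPM in the same groups, a RES difference of 0.16 ± 0.14 (adjusted p = 0.558). Across CON cell types Irak4 was 1.79 ± 0.13 (log2) higher in Ly6C-high monocytes than in B cells (adjusted p = 4.54e-12), whereas Irak1 differed by 0.31 ± 0.12 (adjusted p = 0.0270), under the fold threshold.

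Irak3, the inhibitory kinase of the family, had the sharpest split between lymphocytes. B cells of CON mice ran from 60.3 to 81.9 CPM with a median of 70.8, and T cells from 1.70 to 8.79 CPM with a median of 3.63. The log2 difference was 4.05 ± 0.28 (adjusted p = 5.12e-11, edgeR), and all B cell libraries lay far above all T cell libraries. Between these cell types 20.2% of genes were called, and the share of genes without overlap was not computed. The Irak3 level in B cells was close to that in Ly6C-high monocytes, 80.8 ± 8.70 CPM, with a log2 difference of 0.22 ± 0.24 (adjusted p = 0.501). With libraries 52 and 70 kept under their labels the RES mean in B cells moved from 75.2 ± 10.5 to 63.1 ± 30.9 CPM, and that in T cells from 4.38 ± 2.80 to 18.9 ± 35.6 CPM. The Ly6C-high differences from CON were 0.18 ± 0.13 for SUS and 0.04 ± 0.13 for RES (adjusted p = 0.895).

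Traf6, the ubiquitin ligase on which the MyD88 and IRAK complex converges, varied little between groups. Its group means lay between 46.9 and 54.9 CPM over all 12 groups. It was called in none of the 6 cell type comparisons and none of the stress comparisons, and its largest stress difference among the edgeR fits was -0.13 ± 0.13, for SUS against CON in T cells (adjusted p = 0.999).

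**Figure D4:**
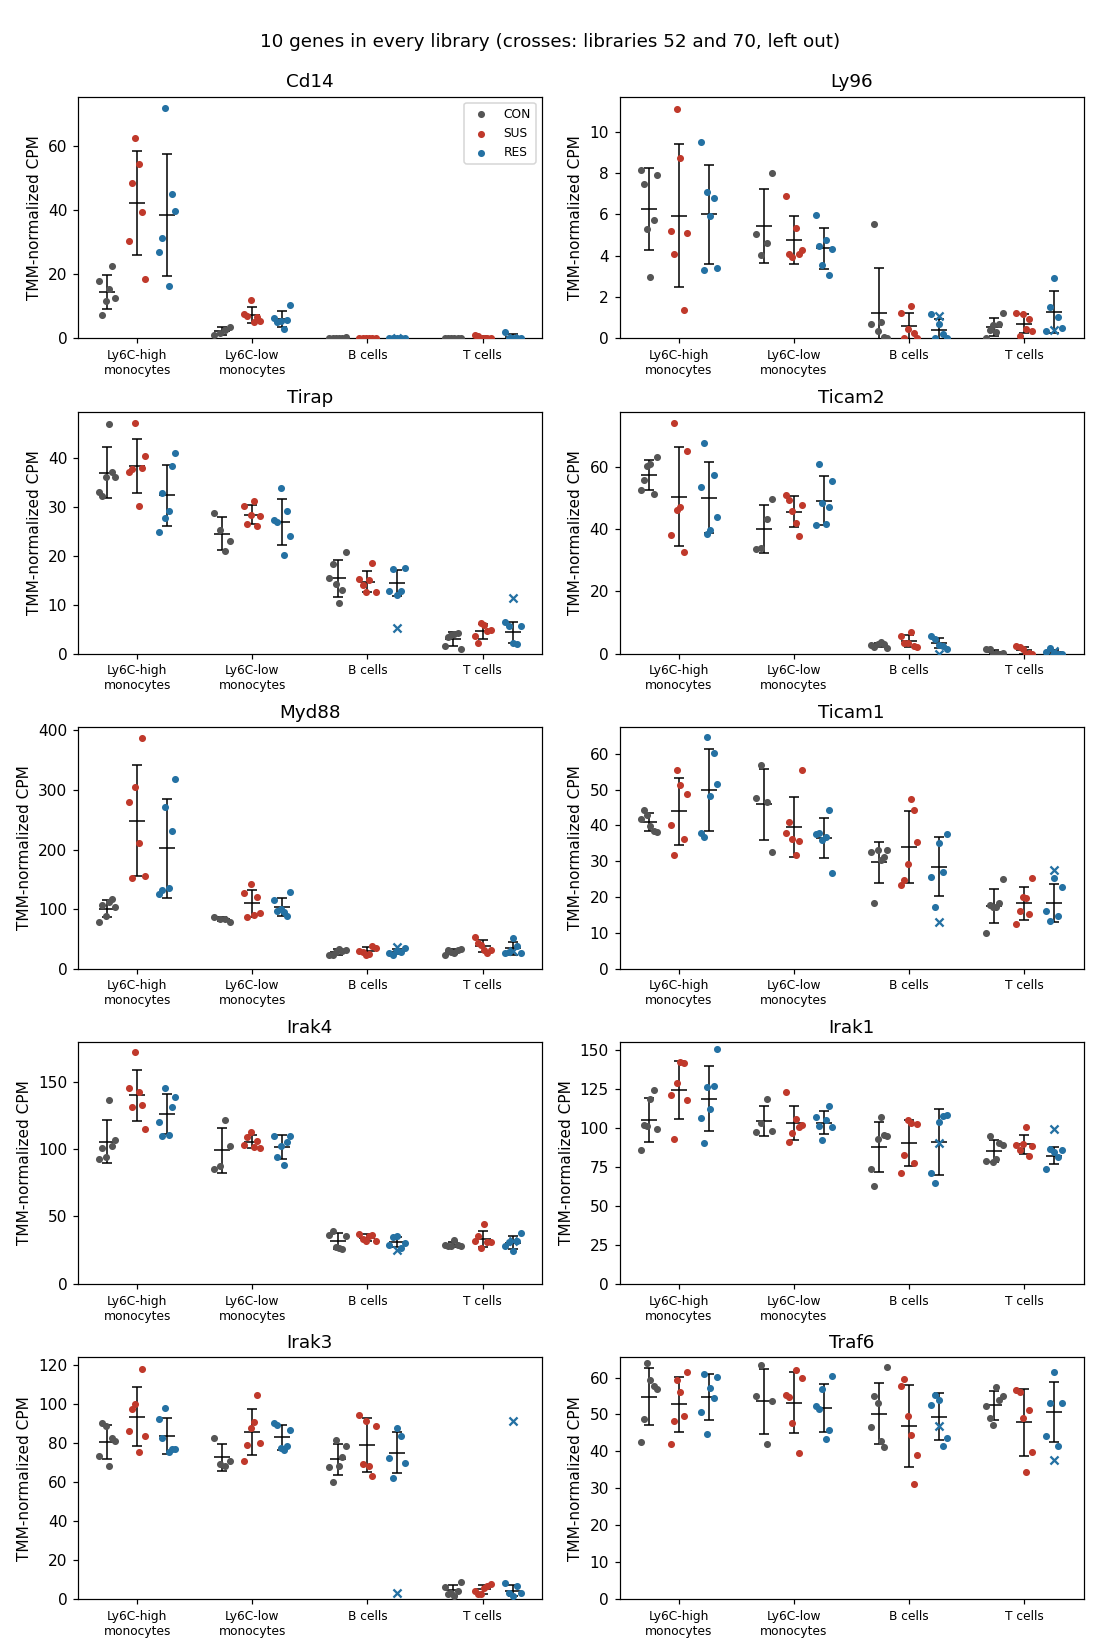
TMM-normalized CPM of the 10 genes in every library, on linear axes from 0, grouped by cell type and coloured by CON, SUS and RES, with the mean and 1 SD in black and libraries 52 and 70 as crosses. Cd14 and Myd88 show higher stressed libraries in Ly6C-high monocytes, Irak3 separates B cells from T cells, and the crosses for Irak3 lie at 2.95 CPM in B cells and 91.4 CPM in T cells.

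B and T cells gave no stress call among the members. In B cells 0.00568% of 17620 genes were called for SUS against CON, 0% for RES against CON (560 genes at an unadjusted p under 0.05, 6 by DESeq2) and 0% between SUS and RES (240 and 0). In T cells 0.0265% of 18860 genes were called for SUS against CON, 0% for RES against CON (775 and 6) and 0% between SUS and RES (451 and 2). In each cell type 9 members passed the filter and 0 were called in any of the 3 comparisons by edgeR or DESeq2, also with libraries 52 and 70 kept. Myd88 in T cells (log2 0.37 ± 0.17 for SUS against CON, adjusted p = 0.973) was the single member at an unadjusted p under 0.05.

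The rest of the pathway was read from lists of 21 receptors and cofactors, 22 downstream signalling genes, 13 negative regulators and 12 target genes. For RES against CON in Ly6C-high monocytes, 1 of the 20 receptors tested was called, Lbp, the lipopolysaccharide carrier that loads CD14. Lbp averaged 5.63 ± 2.67 CPM for CON, 28.2 ± 10.4 for SUS and 18.9 ± 8.07 for RES, and all stressed libraries lay above the CON maximum of 8.85 CPM. Its RES difference was 1.72 ± 0.35 (adjusted p = 0.0142, edgeR) and its SUS difference 2.27 ± 0.36. Tlr4 itself, the receptor, averaged 22.6 ± 6.36, 35.0 ± 15.7 and 28.5 ± 11.3 CPM with overlapping ranges.

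Other lists had few calls for RES against CON. By edgeR 0 of 22 downstream genes were called (2 at an unadjusted p under 0.05, 0 by DESeq2), as were 0 of the 12 negative regulators tested (2 and 0) and 0 of the 9 target genes tested (4 and 0). Tollip, an inhibitor that binds IRAK kinases, averaged 53.3 ± 7.77 CPM in CON and 82.8 ± 10.9 in RES mice, a log2 difference of 0.62 ± 0.13 (adjusted p = 0.0138), and Nfkbiz, an inducible IkB family gene, had a difference of -0.68 ± 0.17 (adjusted p = 0.0262). Both changed but fell short of the fold threshold.

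In SUS against CON the called genes of these lists were Lbp and Il18rap among receptors, with a log2 difference of 1.56 ± 0.41 for the latter, and among targets the lectin Clec4e (1.28 ± 0.28), the acute phase gene Saa3 (5.49 ± 1.63) and the interferon-induced chemokine Cxcl10, which was lower (-2.08 ± 0.56). Saa3 was uneven, from 0 to 45.8 CPM over the SUS libraries. Past the adjusted p but under the fold threshold were Tnfaip3 (-0.82), Nfkbiz (-0.61), Traf3 (-0.50) and Cd180 (-0.41), which were lower. Tlr2 (0.53) and Tollip (0.45) were higher in the same way. In this Ly6C-high contrast 3.45% of 16955 genes were called. Nothing is read from its list calls, because the contrast led to the choice of genes. In Ly6C-low monocytes the endosomal receptor Tlr11 was called for SUS against CON (-2.15 ± 0.47, adjusted p = 0.0444, edgeR), from 5.87 ± 2.26 CPM in CON to 1.34 ± 0.827 in SUS mice.

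In Ly6C-high libraries, red cell, monocyte and platelet RNA moved with the same groups. Csf1r, Cd68 and Lyz2 summed to between 15190 and 18510 CPM in Ly6C-high libraries of CON mice, 18980 and 30160 for SUS and 20660 and 29320 for RES, with no gene of the 3 called by edgeR. Platelet genes (Ppbp, Pf4, Itga2b, Gp9) summed to between 5.49 and 9.83 CPM for CON, 5.57 and 49.7 for SUS and 6.24 and 17.6 for RES, and Ppbp was called higher for SUS against CON. The summed level of 6 red cell genes (Hba-a1, Hba-a2, Hbb-bs, Hbb-bt, Alas2, Slc4a1) ran from 335 to 1194 CPM for CON, from 1089 to 9027 for SUS and from 1061 to 4277 for RES, and edgeR called 6 of the 6 higher in SUS and 1 in RES libraries against CON. With their mean log2 level as a covariate, the RES difference of Myd88 was 0.48 (adjusted p = 1.00, edgeR), and 0 members were called, with 0 of all 16955 genes called (839 at an unadjusted p under 0.05). Neutrophil genes summed to between 9.41 and 354 CPM in CON, 19.4 and 1161 in SUS and 6.02 and 605 in RES libraries, and granule progenitor genes (Mpo, Elane, Prtn3, Ctsg) to between 3.67 and 31.1, 11.7 and 141, and 19.7 and 83.0 CPM. No gene of these lists was at 0 throughout a group of Ly6C-high libraries. Prtn3 alone of the progenitor genes was called. Natural killer cell genes (Ncr1, Klrb1c, Gzma) summed to between 167 and 594 CPM in Ly6C-low libraries of CON mice. They summed to between 242 and 669 CPM for SUS and 354 and 952 for RES in that subset, and to at most 28.7 CPM in Ly6C-high libraries. The red cell covariate, a mean log2 level, was at most 6.52 in CON and at least 6.61 in stressed Ly6C-high libraries. It did not overlap between them, so the fit with it cannot separate red cell RNA from stress. The part of these other cells in the Cd14 and Myd88 differences, and in the Ly6C-low levels, was not tested.

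**Figure D5:**
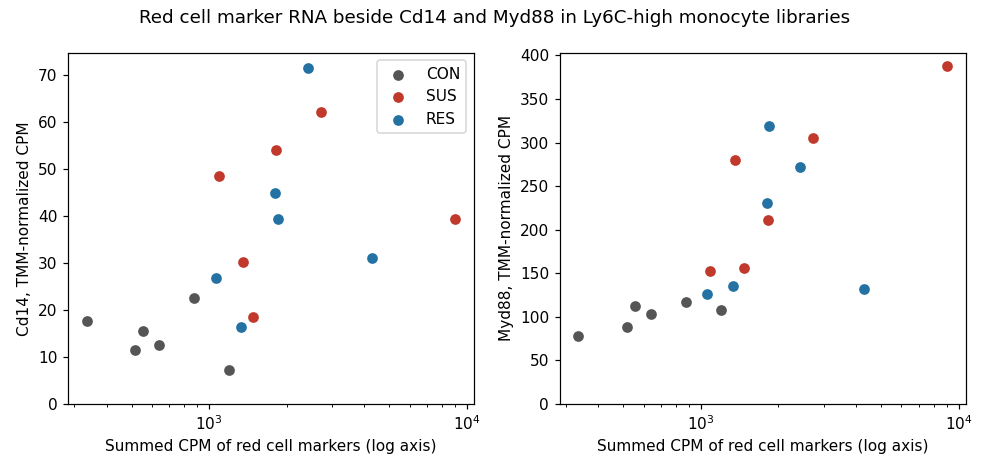
Summed CPM of the 6 red cell genes (log axis) against Cd14 (left) and Myd88 (right) in CPM for the 18 Ly6C-high libraries, coloured by group. CON libraries lie between 335 and 1194 CPM of red cell genes and stressed libraries at 1061 CPM and above, with 1 CON library inside the stressed range.

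The genes most like Cd14 over the 12 group means were Arpc1b, a subunit of the actin-branching Arp2/3 complex (r = 0.997), Trem2, a myeloid lipid receptor (0.995), Cped1 (0.995), Lsr (0.992) and Sdcbp (0.989), with Pearson's r of log2(CPM + 0.5) among 12736 genes of at least 50 counts on average in Ly6C-high monocytes. These points share libraries and normalization, and they span the 4 cell types, so r over them also reflects differences between cell types. Over deviations from the group means in the 18 Ly6C-high libraries the genes were Bin2 (0.893), Pilra (0.842), Ctsd (0.817), Rbm45 (0.816) and Fbh1 (0.811). Myd88 had r = 0.984 with Cd14 over group means and 0.464 over those deviations. Irak4 had 0.95 and 0.583 with Cd14, and Irak1 had 0.955 and 0.306. For Irak3 the 5 genes over group means were Plcg2, a B cell and myeloid phospholipase (0.999), Napsa (0.998), Cyp4f18 (0.997), Rnase6 (0.997) and Lyl1 (0.995), and over the deviations Il2rg (0.827), Zkscan7 (0.768), Vps36 (0.765), Dynll2 (0.747) and Dnajc15 (0.746). Each list holds the highest of 12736 values over 12 or 18 points. How high r would reach by chance was not tested, so nothing is read from these lists.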

How the data were processed

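The members and lists were chosen with earlier results of these data known. The authors deposited raw counts per Ensembl gene, made by aligning reads to mm10 with HISAT2 and counting with HTSeq against Ensembl genes; the strand setting and the treatment of multiply mapped or duplicate reads are not given in the sources used here. Of 52636 gene IDs, 52489 matched GENCODE M21. Libraries 52 and 70 were left out. The summed B cell and Ly6C-high marker levels are not reported here. Levels are CPM after TMM normalization over all 70 libraries, and levels between genes were compared per kb of exon.

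Counts were tested with edgeR 4.0.16 (R 4.3.3; filterByExpr, TMM, robust quasi-likelihood F test), separately within each cell type (3 groups), among CON libraries of the 4 cell types, and for the RES against CON change between cell types over all groups. Adjusted p-values are Benjamini-Hochberg over all genes tested, and each SE comes from the log2 fold change and its F statistic. Calls used the adjusted p at 0.05 together with a log2 fold change beyond 1 in size, while for the difference between cell types the adjusted p alone was used. All members are named. Of other pathway genes, those called are named, with Tlr4, Tmed7 and, in Ly6C-high monocytes, those past the adjusted p alone. The alternatives were DESeq2 1.42.0, its size factors in edgeR, no low-count filter, libraries 52 and 70 kept, only the groups compared, adjusted p alone, mitochondrial, hemoglobin and ribosomal RNA genes left out, a red cell covariate and each library left out. Likeness used a pseudocount of 0.5 CPM, or 0.1 and 1. The test was checked on simulated data. No 2 libraries of a group held identical counts. Library totals of 19769835 to 67038231 limit precision for counting most at Cd14, Ly96 and Ticam2 in lymphocytes. Lowest counts were also small for Tirap (22) and Irak3 (59) in T cells. They were 40 for Cd14 in Ly6C-low CON libraries and 46 for Ly96 in Ly6C-high SUS libraries.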

Additional observations from a re-analysis of the deposited data

Results flagged for a closer look

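Among the 119 groups of 4 to 6 libraries examined (10 genes, 12 groups, those with at least 1 count), 9 held a library far from the others in CPM by Dixon's criterion, and chance alone gives about 1 in 20 groups. In monocytes these were Cd14 in SUS library 25 of Ly6C-low monocytes, at 12.1 CPM with the next at 7.61, Tirap in CON library 10 of Ly6C-high monocytes, at 47.0 CPM with the next at 37.3, and Irak4 in the same library, at 136 CPM with the next at 106.4.

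In B cells the distant values were Cd14 in RES library 49 (0.246 CPM, 10 counts, the others at 0), Ly96 in CON library 38 (5.55 CPM, the next at 0.817) and Ticam1 in the same library 38 (18.4 CPM, the next at 30.2). In T cells they were Cd14 in RES library 55 (1.95 CPM, 102 counts, the others at 0), Ticam2 in RES library 58 (1.74 CPM, the next at 0.496) and Irak4 in CON library 62 (32.6 CPM, the next at 29.1).

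The change of Myd88 in RES against CON mice was 0.98 ± 0.27 (log2, SE) larger in Ly6C-high monocytes than in B cells, with an adjusted p of 0.0470 by edgeR, and 0.119 with only these cell types fitted. Against T cells (adjusted p = 0.121) and Ly6C-low monocytes (adjusted p = 0.303) the difference did not pass.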

How the results depend on the processing

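With the red cell covariate 0 members were called for SUS or RES against CON in Ly6C-high monocytes, where the reported fits called 2 and 1. That covariate was higher in every stressed than in every CON library there, so nothing is read from this loss of calls. By adjusted p alone the RES count was 2. Leaving out each library gave 0 to 2 members for RES against CON: Cd14 lost its call without RES library 9 (log2 1.11, adjusted p = 0.0633, edgeR) or 18 (1.37, adjusted p = 0.0515), and Myd88 passed the fold threshold without CON library 10, 13 or 16 or RES library 3, 6 or 12. In Ly6C-low monocytes DESeq2 and the fit with no low-count filter each called 1 member, Cd14, for SUS against CON, and leaving out each library gave 0 to 1, with the call made without RES library 28 or SUS library 33. The Myd88 difference between Ly6C-high monocytes and B cells was called in 0 of the members with only these cell types fitted. Among CON cell types, Ly96 in Ly6C-low monocytes against B cells was called by DESeq2 and without library 38 (3.81) or 53, and Cd14 in B against T cells lost its call without any of 6 libraries (adjusted p up to 0.299, without library 50). Of the 5 genes most like Cd14 over group means, 3 remained at a pseudocount of 0.1 CPM. Counts over all genes moved more: in Ly6C-high monocytes 585 genes for SUS and 169 for RES against CON became 748 and 255 with DESeq2, 591 and 259 with only the groups compared, and 1 and 0 with the red cell covariate, and leaving out each library gave 286 (without SUS library 14) to 893 (without SUS library 17) and 29 (without RES library 18) to 365 (without RES library 3). In Ly6C-low monocytes 17 and 3 became 85 and 5 with DESeq2, 27 and 6 with no filter, 8 and 5 with only the groups compared and 2 and 0 with the covariate. In lymphocytes DESeq2 called 26 (B cells) and 63 (T cells) genes for SUS against CON, beside 1 and 5, and with libraries 52 and 70 kept both counts were 0. For the RES change of Ly6C-high monocytes against B cells, T cells and Ly6C-low monocytes, 400, 173 and 24 genes became 11, 4 and 0 with only the cell types compared, and the first 2 counts became 1268 and 457 with libraries 52 and 70 kept. No alternative turned a called member's direction. The cause of these shifts was not tested. No paired analysis was possible because the mouse behind a library is not named. Depth limits Cd14, Ly96 and Ticam2 in lymphocytes most.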
